A study of Mus musculus with 6 samples.

Results

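The genes described here encode the proteasome outside its interferon-inducible form. They were chosen by name: every gene with a probe set of its own whose symbol begins with Psma, Psmb, Psmc, Psmd, Psme, Psmf or Psmg and a number, without the immunoproteasome genes Psmb8, Psmb9, Psmb10, Psme1 and Psme2. This gave 45 of the 19938 genes measured, each read from its probe set of highest mean over all arrays. The rule uses names and mean levels, but it was set with earlier results of these data known. It also takes Psmc3ip, a meiotic recombination factor, and Psme3ip1, a protein that binds the activator Psme3, and neither is a proteasome subunit.

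RNA was profiled on 6 Affymetrix arrays, 3 of Ly6C- F4/80high and 3 of Ly6C+ F4/80low macrophages, with both subsets taken from each of 3 mice. Every mouse was of the strain B6.129P2-Lyzstm1(cre)Ifo/J, in which Cre is inserted in the lysozyme gene that myeloid cells express. As all mice were of this strain, both subsets carry the allele. No age of the animals is used here. Cardiotoxin, a muscle-damaging component of snake venom, had been given into the tibialis anterior, and cells were collected on day 2. Blood-lineage cells were enriched on beads against CD45, then sorted by Ly6C and F4/80. The comparison asks how the macrophage subsets of regenerating muscle differ.

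The proteasome degrades proteins that carry ubiquitin chains. Its barrel, the 20S core, is built of outer alpha rings that gate the channel and inner beta rings that hold the proteolytic sites, and a 19S cap of ATPases and non-ATPase subunits binds, unfolds and feeds in the substrate. Dedicated chaperones assemble both parts, and in macrophages the core also makes peptides for MHC class I presentation. When proteasome capacity falls short, the factor NRF1 (gene Nfe2l1) raises the transcription of subunit genes together through CNC-bZIP elements in their promoters.

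All levels are log2 expression values. Each difference is the Ly6C- F4/80high mean less the Ly6C+ F4/80low mean, on the same log2 scale, with its standard error (SE) from limma. A gene was called where limma gave a p under 0.05 after Benjamini-Hochberg adjustment over the 19938 genes. The number of arrays limits the precision: over the 45 genes the SE ran from 0.07 to 0.20, with a median of 0.08. The sort was checked on a pair of probe sets that match both Ly6c1 and Ly6c2, 10.5-fold and 9.08-fold lower in Ly6C- F4/80high cells, and on Adgre1, the F4/80 gene, which was higher by 0.73. Of 6 macrophage markers Mertk, Adgre1 and Cd68 were called higher, at 1.57, 0.73 and 0.31. Fcgr1 and Itgam were called lower, at -0.28 and -0.23, and Csf1r was not called (-0.18). All 6 lay above the background of 5.44 on every array. That background is the 95th percentile of 1194 olfactory and vomeronasal receptor genes. Across probe sets, arrays within a subset had correlations of 0.990 to 0.993.

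Stretches of promoter sequence are shown for 4 genes on which the results turn: Psmb6 and Psmb5, catalytic subunits called higher in Ly6C- F4/80high macrophages, Psmd5, the gene with the largest difference of the 45, and Psmd14, with one of the smallest. Each is the 150 bases before the annotated transcription start, 5′ to 3′ on the gene's strand, from RefSeq's promoter table of build GRCm38.p6. Capitals mark matches on either strand to the CNC-bZIP element TGACNNNGC or the GC box GGGCGG, and CCAAT was also searched.
Psmb6 (chr11:70525207-70525356, plus strand): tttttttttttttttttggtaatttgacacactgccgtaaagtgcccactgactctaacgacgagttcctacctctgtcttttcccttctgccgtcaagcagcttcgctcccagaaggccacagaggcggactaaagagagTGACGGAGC
Psmb5 (chr14:54617996-54618145, minus strand): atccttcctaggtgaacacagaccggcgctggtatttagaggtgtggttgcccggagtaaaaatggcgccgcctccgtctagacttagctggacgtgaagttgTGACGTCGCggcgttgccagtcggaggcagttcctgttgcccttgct
Psmd5 (chr2:34870963-34871112, minus strand): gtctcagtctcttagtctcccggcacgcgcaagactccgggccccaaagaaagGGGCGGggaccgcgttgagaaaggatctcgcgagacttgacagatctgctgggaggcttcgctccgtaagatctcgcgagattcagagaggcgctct
Psmd14 (chr2:61711544-61711693, plus strand): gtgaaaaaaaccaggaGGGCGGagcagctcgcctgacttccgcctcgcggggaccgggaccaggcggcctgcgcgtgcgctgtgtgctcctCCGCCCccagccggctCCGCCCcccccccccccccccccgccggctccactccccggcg

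The CNC-bZIP match of Psmb6 began 9 bases before the start and that of Psmb5 47 bases before it. Psmd5 held 1 GC box and Psmd14 held 3 in these stretches, with no CNC-bZIP match and no CCAAT in either.

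Of the 45 proteasome genes 26 were called higher in Ly6C- F4/80high cells, 0 were called lower and 19 were not called. That is 57.8%, where 19.5% of all genes were called higher and 14.3% lower. Among the 12256 genes with a mean above the background, 29.3% were called higher and 15.7% lower. Without mouse 3 the count was 14 of the 45, where 13.4% of all genes were called higher. The differences were small, from -0.18 for Psmb11 to 0.90 for Psmd5, with a median of 0.29 where the median of all genes was -0.06. In 32 of the 45 the 3 Ly6C- F4/80high arrays lay above all 3 Ly6C+ F4/80low arrays, which held for 24.4% of all genes. The reverse held for Psmb11 alone, and for 23.6% of all genes. The difference was positive in 41 of the 45, against 41% of all genes and 53.5% of those above the background. Within mice 1, 2 and 3 the 45 genes had median differences of 0.22, 0.34 and 0.34, and all genes had -0.06, 0.02 and -0.08.

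**Figure D1:**
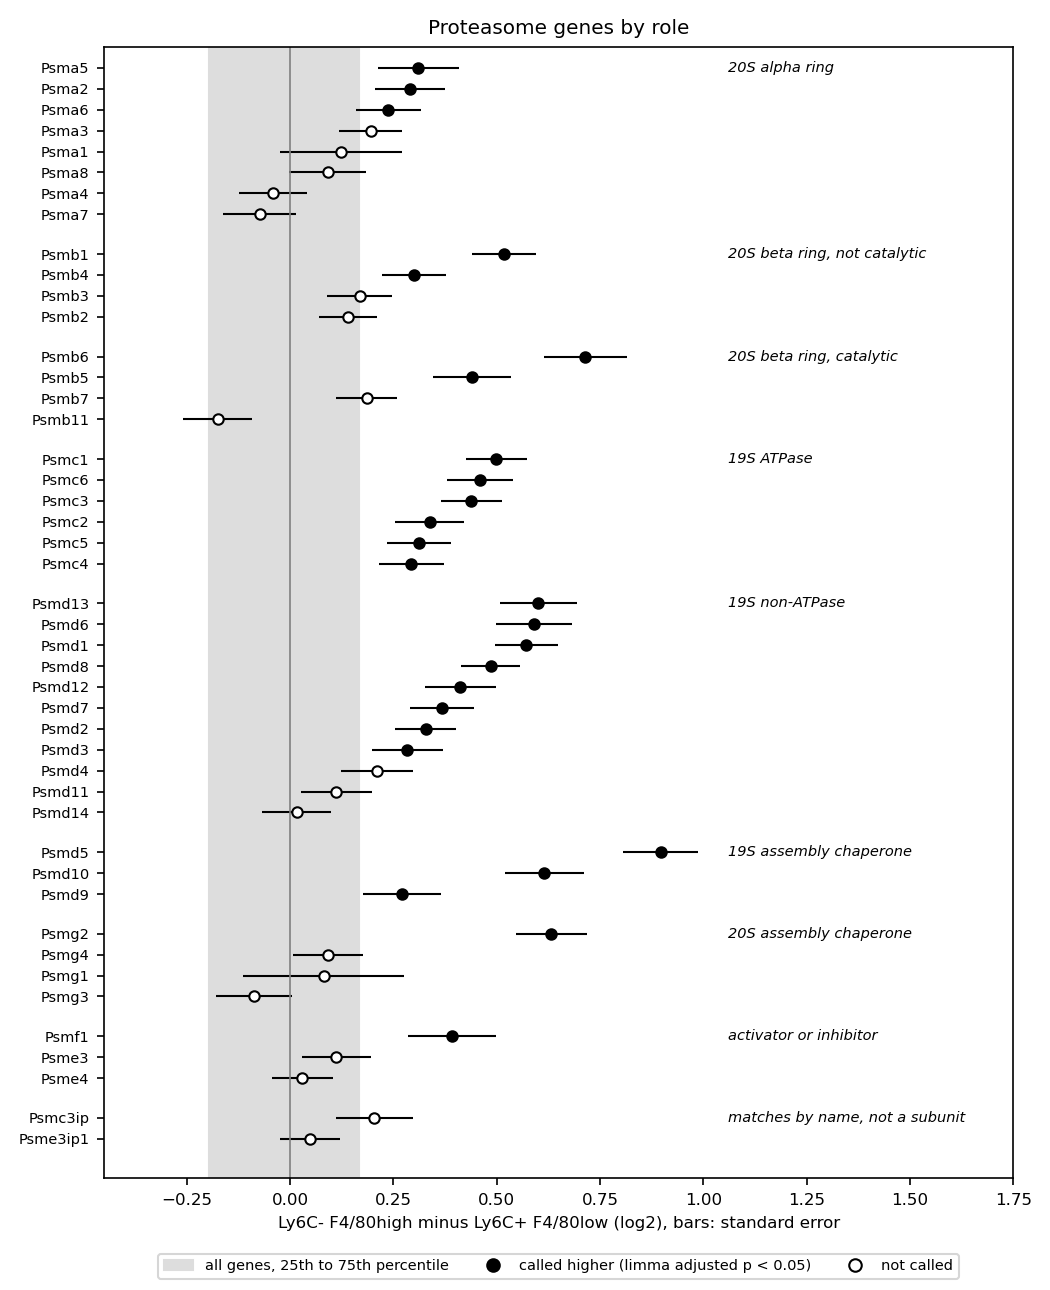
Log2 difference of each of the 45 genes (Ly6C- F4/80high minus Ly6C+ F4/80low), grouped by role. Points are limma estimates from 3 arrays per subset, bars are standard errors, filled points were called, and the grey band spans the 25th to 75th percentile of all genes. Called genes run from 0.24 (Psma6) to 0.90 (Psmd5), and all 6 ATPase genes are among them.

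Among the catalytic genes of the core, Psmb6 and Psmb5 were higher and Psmb7 was not called. Psmb6, the caspase-like site, stood at 10.1, 10.2 and 10.5 in the Ly6C- F4/80high arrays of mice 1, 2 and 3, against 9.55, 9.46 and 9.58 in the Ly6C+ F4/80low arrays. Its groups did not overlap, and it was 1.64-fold higher (difference 0.71, SE 0.10, limma adjusted p = 0.000445). Psmb5, the chymotrypsin-like site, had 11.1, 11.4 and 11.3 in the Ly6C- F4/80high arrays and 10.9, 10.8 and 10.8 in the Ly6C+ F4/80low arrays. It was 1.36-fold higher (difference 0.44, SE 0.09, limma adjusted p = 0.00552), although mouse 1 differed by 0.18 and mouse 2 by 0.65, and without mouse 3 the adjusted p was 0.0625. Psmb7, the trypsin-like site, averaged 9.56 ± 0.05 in Ly6C- F4/80high and 9.37 ± 0.05 in Ly6C+ F4/80low cells (SD, n = 3 each). Its difference of 0.19 missed the threshold (SE 0.07, 95% interval 0.02 to 0.35, limma adjusted p = 0.0797), though its arrays did not overlap, and with a common median it was called (0.26, adjusted p = 0.0237). RefSeq lists pseudogenes of Psmb5, Psmb6, Psmb7 and Psma5, and probes of these genes may also read such copies. Psmb11, the catalytic subunit of cortical thymus epithelium, lay under the background on all 6 arrays.

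The beta subunits without a catalytic site were split. Psmb1 had 8.74, 8.75 and 8.83 in the Ly6C- F4/80high arrays, against 8.28, 8.33 and 8.17 in the Ly6C+ F4/80low arrays. That is a difference of 0.52 (SE 0.08, limma adjusted p = 0.000649), the same in direction in all 3 mice. Psmb4 was also called, at 0.30 (SE 0.08, limma adjusted p = 0.0144, and 0.0607 without the mouse 3 array of Ly6C- F4/80high cells). Psmb3 and Psmb2 differed by 0.17 and 0.14 and were not called (limma adjusted p = 0.122 and 0.152), and with a common median both were called, at 0.24 and 0.22 (adjusted p = 0.0304 and 0.0421). Psmb3 has a second probe set, which gave 0.15.

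Among 8 alpha ring genes 3 were called. Psma5, Psma2 and Psma6 were higher by 0.31, 0.29 and 0.24 (limma adjusted p = 0.0333, 0.0250 and 0.0408). Each of these calls was lost when certain single arrays were left out: that of Psma5 without any array but the mouse 1 array of Ly6C- F4/80high cells (adjusted p up to 0.110), and those of Psma2 and Psma6 without either of the Ly6C- F4/80high arrays of mice 1 and 3 or the mouse 3 array of Ly6C+ F4/80low cells (up to 0.0874 and 0.130). For Psma6 the mouse 2 array of Ly6C+ F4/80low cells did the same (0.0852), and a replicate block for the mouse gave 0.0562. After quantile normalization 0 of the 8 were called (0.126, 0.0901 and 0.0984 for Psma5, Psma2 and Psma6), and after cyclic loess also 0 (0.0976, 0.0965 and 0.152). The second probe set of Psma5 gave 0.36. Psma3 differed by 0.19 (limma adjusted p = 0.0712, and 0.0151 with a common median) and its 3 probe sets by 0.19 each. Psma1 varied most within the subsets among the alpha genes, at 10.0, 9.83 and 10.3 in Ly6C- F4/80high and 10.2, 9.69 and 9.98 in Ly6C+ F4/80low cells (difference 0.12, SE 0.15, 95% interval -0.20 to 0.45).

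Psma4 and Psma7, both constitutive alpha subunits, were not called. Psma7 had 8.94, 8.84 and 8.71 in the Ly6C- F4/80high arrays and 8.81, 8.93 and 8.98 in the Ly6C+ F4/80low arrays, overlapping groups with a difference of -0.07 (SE 0.09, 95% interval -0.27 to 0.12). For Psma4 the difference was -0.04 (SE 0.08, 95% interval -0.22 to 0.14). Psma8, the alpha subunit of the testis proteasome, was under the background on all 6 arrays.

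All 6 ATPase genes of the cap were called higher. These subunits form the ring that unfolds substrates and opens the gate of the core. Psmc1 led, with 9.04, 8.99 and 9.08 in the Ly6C- F4/80high arrays, against 8.59, 8.49 and 8.53 in the Ly6C+ F4/80low arrays. It was 1.41-fold higher (difference 0.50, SE 0.07, limma adjusted p = 0.000576), and its second probe set gave 0.56. Psmc6 had 8.74, 8.82 and 8.88 in Ly6C- F4/80high cells and 8.36, 8.44 and 8.27 in Ly6C+ F4/80low cells, a difference of 0.46 (SE 0.08, limma adjusted p = 0.00163). Psmc3, Psmc2, Psmc5 and Psmc4 followed at 0.44, 0.34, 0.31 and 0.29 (limma adjusted p = 0.00135, 0.0112, 0.0120 and 0.0166). In all 6 genes every Ly6C- F4/80high array exceeded every Ly6C+ F4/80low array. Psmc4 lost its call without the array of mouse 3 in the Ly6C- F4/80high subset (0.0657) or the mouse 2 array of Ly6C+ F4/80low cells (0.0592). Rescaled by quantile normalization, Psmc2, Psmc5 and Psmc4 were no longer called, and by cyclic loess Psmc5 and Psmc4. Without mouse 1, mouse 2 and mouse 3 the count was 4, 5 and 3 of the 6 (14.8%, 16.1% and 13.4% of all genes). Psmc2 and Psmc5 each lost the call without mouse 1 and without mouse 3, and Psmc4 without mouse 2 and without mouse 3.

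**Figure D2:**
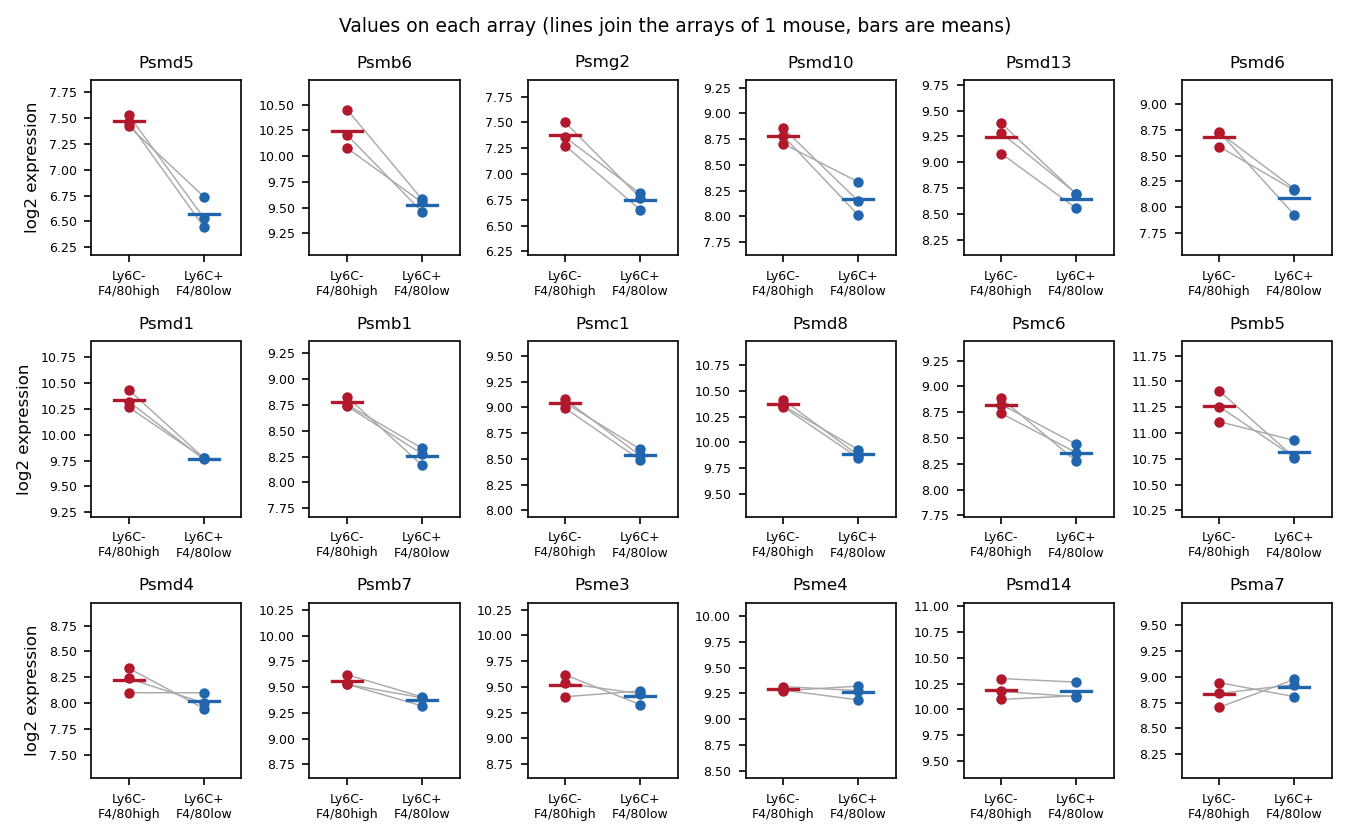
Log2 expression on each array for the 12 called genes with the largest differences and 6 genes that were not called, Ly6C- F4/80high left and Ly6C+ F4/80low right. Points are arrays, grey lines join the arrays of 1 mouse, bars are means of 3, and every panel spans the same range in height. In the 12 called genes all Ly6C- F4/80high arrays lie above all Ly6C+ F4/80low arrays, while in Psme3, Psme4, Psmd14 and Psma7 they overlap.

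Of 11 non-ATPase genes of the cap 8 were called higher and 3 were not called. Psmd13, a lid subunit, stood at 9.38, 9.08 and 9.28 in the Ly6C- F4/80high arrays, against 8.69, 8.55 and 8.70 in the Ly6C+ F4/80low arrays. Its difference was 0.60 (SE 0.09, limma adjusted p = 0.000799). Psmd6, also of the lid, had 8.59, 8.72 and 8.73 in Ly6C- F4/80high cells and 8.16, 8.18 and 7.92 in Ly6C+ F4/80low cells (difference 0.59, SE 0.09, limma adjusted p = 0.000786). Psmd13 was 1.52-fold and Psmd6 1.51-fold higher, and neither overlapped between subsets. Psmd8 of the lid followed with 10.3, 10.4 and 10.4 in the Ly6C- F4/80high arrays and 9.85, 9.93 and 9.88 in the Ly6C+ F4/80low arrays (difference 0.49, SE 0.07). The lid genes Psmd12, Psmd7 and Psmd3 were higher by 0.41, 0.37 and 0.28 (limma adjusted p = 0.00452, 0.00477 and 0.0272), and without mouse 3 that of Psmd12 was 0.0651. Under a replicate block for the mouse Psmd3 was not called (adjusted p = 0.0581), nor without either of the Ly6C- F4/80high arrays of mice 1 and 3 or the mouse 3 array of Ly6C+ F4/80low cells (0.0592 to 0.103), nor after quantile normalization (0.109) or cyclic loess.

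The scaffold genes Psmd1 and Psmd2, which hold the base of the cap and dock its partners, were both higher. Psmd1 had 10.3, 10.3 and 10.4 in the Ly6C- F4/80high arrays and 9.77, 9.76 and 9.77 in the Ly6C+ F4/80low arrays, which scarcely varied (SD 0.01). That is 1.49-fold (difference 0.57, SE 0.08, limma adjusted p = 0.000308). For Psmd2 the values were 10.1, 10.1 and 10.2 in Ly6C- F4/80high cells and 9.78, 9.75 and 9.84 in Ly6C+ F4/80low cells, and the difference was 0.33 (SE 0.07, limma adjusted p = 0.00644, and 0.0516 without mouse 3) on one probe set and 0.46 on the other.

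The cap subunit genes Psmd4, Psmd14 and Psmd11 were not called. Psmd4, a ubiquitin receptor, had 8.10, 8.24 and 8.34 in the Ly6C- F4/80high arrays, against 7.95 to 8.10 in the Ly6C+ F4/80low arrays (difference 0.21, SE 0.09, limma adjusted p = 0.0874, and 0.0267 with a common median). Psmd14, the metalloprotease that cuts ubiquitin chains off bound substrates, stood at 10.1, 10.3 and 10.2 in Ly6C- F4/80high cells and 10.1, 10.3 and 10.1 in Ly6C+ F4/80low cells. Its groups overlapped, and the difference of 0.02 had a 95% interval of -0.17 to 0.20 (limma adjusted p = 0.897). Psmd7, the partner with which Psmd14 forms a dimer in the lid, was higher by 0.37 with an interval of 0.19 to 0.54. Psmd11 of the lid differed by 0.11 (limma adjusted p = 0.334).

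All 3 chaperone genes for assembly of the cap were called, among them the gene with the largest difference of the 45. Psmd5, which holds ATPase subunits during assembly of the base, had 7.53, 7.42 and 7.46 in the Ly6C- F4/80high arrays, against 6.53, 6.74 and 6.44 in the Ly6C+ F4/80low arrays. It was 1.86-fold higher (difference 0.90, SE 0.09, limma adjusted p = 5.53e-05), and 2.59% of all genes had a larger difference. Psmd10, known as gankyrin and another base chaperone, stood at 8.78, 8.71 and 8.86 in Ly6C- F4/80high cells and 8.01, 8.33 and 8.15 in Ly6C+ F4/80low cells (difference 0.62, SE 0.10, limma adjusted p = 0.000779). The base chaperone gene Psmd9 was just past the threshold, at 0.27 (SE 0.09, limma adjusted p = 0.0490), with a difference of 0.07 in mouse 3. A replicate block for the mouse ended the call (adjusted p = 0.0621), as did leaving out any single array other than the mouse 3 array of Ly6C- F4/80high cells (0.0803 to 0.135), and quantile normalization gave 0.0636.

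Among the core's own assembly chaperones 1 of 4 was called. Psmg2 had 7.36, 7.28 and 7.50 in the Ly6C- F4/80high arrays and 6.81, 6.66 and 6.77 in the Ly6C+ F4/80low arrays, 1.55-fold higher (difference 0.63, SE 0.09, limma adjusted p = 0.000359). Psmg1, with which Psmg2 forms a dimer that builds the alpha ring, had 7.80, 7.33 and 7.54 in Ly6C- F4/80high cells and 7.81, 6.98 and 7.63 in Ly6C+ F4/80low cells. The arrays of mouse 2 were its lowest in both subsets, and its SE of 0.20 was the largest of the 45 genes (difference 0.08, 95% interval -0.36 to 0.52). Psmg4 and Psmg3, which form the second dimer, differed by 0.09 and -0.09 and were not called (limma adjusted p = 0.417 and 0.483). Psmg3 lay close to the background, with 2 of 3 Ly6C- F4/80high and 3 of 3 Ly6C+ F4/80low arrays above it.

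Among 3 genes for other regulators of the core 1 was called. Psmf1, which encodes the core-binding protein PI31, was higher by 0.39 (SE 0.11, limma adjusted p = 0.0176). Its values were 8.34, 8.35 and 8.25 in the Ly6C- F4/80high arrays and 7.83, 8.16 and 7.77 in the Ly6C+ F4/80low arrays, the array of mouse 2 standing apart. It was not called without the array of mouse 1 in the Ly6C- F4/80high subset (0.0552) or the mouse 1 array of Ly6C+ F4/80low cells (0.0601), nor without the mouse 3 array of those Ly6C+ F4/80low cells (0.0663). Psme3, the nuclear activator PA28 gamma, had 9.40, 9.54 and 9.62 in Ly6C- F4/80high and 9.46, 9.43 and 9.33 in Ly6C+ F4/80low cells (difference 0.11, 95% interval -0.07 to 0.30). Psme4, the activator PA200, ranged from 9.28 to 9.32 in Ly6C- F4/80high and from 9.19 to 9.32 in Ly6C+ F4/80low cells (difference 0.03, 95% interval -0.14 to 0.20). Psme3ip1 and Psmc3ip differed by 0.05 and 0.20 and were not called, and Psmc3ip lay under the background on all 3 Ly6C+ F4/80low arrays.

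Counted by particle, 14 of 17 cap genes (82.4%) and 7 of 14 core genes (50%) were called, leaving out Psma8 and Psmb11. Of all genes 19.5% were called higher, and of those with a mean above the background 29.3%. The median difference was 0.37 for the cap and 0.22 for the core, and this contrast was not tested. Without mouse 3, 8 of 17 cap genes and 2 of 14 core genes were called, where 13.4% of all genes were called higher. The core share was then close to that of all genes. Without the mouse 3 array of Ly6C- F4/80high cells the core count was 3 (16.4% of all genes). Without the mouse 3 array of Ly6C+ F4/80low cells it was 4 (16.7%). Without mouse 1 or mouse 2 it was 4 (14.8% and 16.1%). Quantile normalization and cyclic loess each gave a core count of 4 as well (17.9% and 18.3%), and it was 11 with a common median (24%). The cap count was 11 without mouse 1 and 13 without mouse 2. It was 10 after quantile normalization, 11 after cyclic loess and 15 with a common median. Without the 50% of genes of lowest level 15 cap and 9 core genes were called (38% of all genes kept). Across these 31 genes the difference had little relation to the mean level (Pearson r = -0.15 across genes, which share the same arrays). Fewer cells that express a gene and less of its RNA per cell cannot be told apart in these bulk samples.

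No immunoproteasome gene was called higher. In cells exposed to interferon Psmb8, Psmb9 and Psmb10 replace Psmb5, Psmb6 and Psmb7 in newly built cores, and Psme1 and Psme2 form the activator PA28. Of these 5 genes 0 were called higher, 1 was lower and 4 were not called, with a median of -0.14. All genes had a median of -0.06, with 19.5% called higher and 14.3% lower. Psmb8 had 8.32, 8.44 and 8.72 in Ly6C- F4/80high and 8.68, 8.44 and 8.50 in Ly6C+ F4/80low cells (difference -0.05, 95% interval -0.30 to 0.20), and with a common median its sign turned, at 0.03. Psmb9 and Psmb10 differed by -0.16 and -0.14 (limma adjusted p = 0.137 and 0.257), and Psmb9 was called lower after both quantile normalization (-0.25, adjusted p = 0.0355) and loess (-0.24, 0.0336). Psme1 was called, at -0.27 (SE 0.08, limma adjusted p = 0.0324), a call lost without any single array other than the mouse 2 array of Ly6C+ F4/80low cells (adjusted p 0.0557 to 0.106) and with a common median (0.114). Psme2 differed by 0.08.

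The ratio of each standard catalytic gene to its inducible counterpart was formed within each array. A ratio of probe sets has no meaning as a level, so it is given relative to the Ly6C+ F4/80low mean. For Psmb6 to Psmb9 it was 0.80, 0.82 and 1.00 in the Ly6C- F4/80high arrays and 0.01, -0.10 and 0.09 in the Ly6C+ F4/80low arrays, a change of 0.87. The ratio of Psmb5 to Psmb8 was 0.51, 0.69 and 0.26 in Ly6C- F4/80high and -0.03, 0.04 and -0.01 in Ly6C+ F4/80low cells, a change of 0.49. For Psmb7 to Psmb10 the values were 0.45, 0.23 and 0.29 in Ly6C- F4/80high against -0.13, 0.00 and 0.13 in Ly6C+ F4/80low cells, a change of 0.32. All 3 ratios were higher in 3 of 3 mice with no overlap between subsets. Each gave p = 0.10 in a two-sided exact permutation test over arrays, and 0.10 after Benjamini-Hochberg adjustment over the 3 ratios. That is the smallest p that 3 against 3 allow. The test took no account of the mouse that pairs arrays. Where subsets do not overlap its p must be this smallest value, so it adds nothing to the values above.

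**Figure D3:**
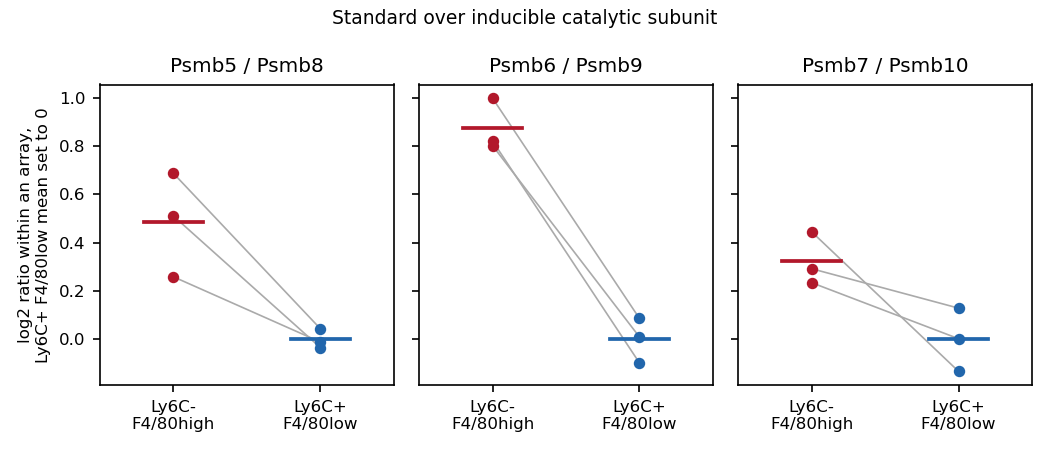
Log2 ratio of the standard to the inducible catalytic gene within each array, with the Ly6C+ F4/80low mean set to 0, Ly6C- F4/80high left and Ly6C+ F4/80low right. Points are arrays, grey lines join the arrays of 1 mouse and bars are means of 3. The changes are 0.49, 0.87 and 0.32, and the subsets do not overlap in any of the panels.

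Proteins that bind the proteasome without bearing its name were called higher in 5 of 11 measured cases (45.5%) and lower in 0. Of all genes 19.5% were called higher and 14.3% lower. Uchl5, a cap-bound deubiquitinase, stood at 8.02, 7.93 and 8.10 in the Ly6C- F4/80high arrays, against 6.82, 6.86 and 7.03 in the Ly6C+ F4/80low arrays. It was 2.16-fold higher (difference 1.11, SE 0.09, limma adjusted p = 1.04e-05), more than any of the 45 genes. Usp14, the other deubiquitinase that joins the cap reversibly, had 8.91, 8.93 and 8.99 in Ly6C- F4/80high and 8.39, 8.61 and 8.41 in Ly6C+ F4/80low cells (difference 0.47, SE 0.08, limma adjusted p = 0.00175). The other called genes were the lid subunit gene Sem1 at 0.30, the ubiquitin ligase gene Ube3c at 0.30 and the phosphatase gene Ublcp1 at 0.26, and each of these 3 calls was lost without at least 3 of the single arrays (adjusted p up to 0.122). Ublcp1 also lost it under a replicate block for the mouse (adjusted p = 0.0627). Without mouse 1, mouse 3, the mouse 1 or mouse 3 array of Ly6C- F4/80high cells, or the mouse 3 array of Ly6C+ F4/80low cells, 2 of the 11 were called. In these settings 13.4% to 16.7% of all genes were called higher. After cyclic loess 3 were called, Uchl5, Usp14 and Ublcp1, and after quantile normalization 4, with Sem1 added (18.3% and 17.9% of all genes). With a common median 7 were called (24% of all genes). Without the 50% of genes of lowest level 4 of 10 were called, close to the 38% of all genes kept. In the main fit 29.3% of genes with a mean above the background were called higher. Pomp, the maturation factor of new cores, differed by 0.14 (SE 0.11, limma adjusted p = 0.336). Adrm1 and Paaf1 are not analysed here.

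Shuttle and unfolding genes, which carry ubiquitinated proteins to the proteasome, were called higher in 3 of 7 cases (42.9%) and lower in 0. The shares of all genes were 19.5% and 14.3%. Ufd1, of the complex that extracts proteins with the unfoldase Vcp, was higher by 0.29 (limma adjusted p = 0.0159, and 0.0540 without the mouse 1 array of Ly6C- F4/80high cells). Vcp was higher by 0.26 (limma adjusted p = 0.0193). It was not called without the mouse 3 array of Ly6C- F4/80high cells (0.0721) or the mouse 1 array of Ly6C+ F4/80low cells (0.0570). Ubqln2, a ubiquilin shuttle, passed at 0.25 (limma adjusted p = 0.0435) but not without any array other than the mouse 3 array of Ly6C- F4/80high cells (0.0785 to 0.117), nor under a replicate block for the mouse (0.0553). Without any 1 mouse 0 of the 7 were called, where 13.4% to 16.1% of all genes were called higher. Without the mouse 1 array of Ly6C+ F4/80low cells 1 was called (17.5% of all genes). After quantile normalization Vcp alone was called (adjusted p = 0.0391), and after cyclic loess 0 were called (0.0617 for Vcp, 0.0677 for Ufd1 and 0.164 for Ubqln2). These scalings called 17.9% and 18.3% of all genes higher. With a common median 6 of the 7 were called, and 5 were when genes in the lower 50% by level, or those under the receptor background, were left out. The shares of all genes kept that were called higher were then 24%, 38% and 32.2%.

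Of 6 NRF1 pathway genes measured, 0 were called higher, 2 were lower and 4 were not called, where 19.5% of all genes were higher and 14.3% lower. Nfe2l1 itself stood at 8.71, 8.66 and 8.57 in the Ly6C- F4/80high arrays and 8.72, 8.69 and 8.83 in the Ly6C+ F4/80low arrays (difference -0.10, 95% interval -0.27 to 0.08, limma adjusted p = 0.351). Nfe2l2, the related factor NRF2, differed by -0.34 in mean and by -0.30, -0.34 and -0.39 in mice 1, 2 and 3 (SE 0.08, limma adjusted p = 0.00610). Maff, a small MAF partner of both, was lower too, at -0.44 (SE 0.08, limma adjusted p = 0.00288). Without mouse 3 Maff alone of the 6 was called lower, as were 6.63% of all genes. The counts also depended on scaling. After quantile normalization 3 were called lower, with Mafk added (-0.28, adjusted p = 0.0134), and after cyclic loess 4, with Mafk (-0.27, 0.0122) and Mafg (-0.23, 0.0476), both small MAF genes. These scalings called 11.5% and 11.7% of all genes lower. With a common median 2 were called lower and Ngly1, an enzyme that activates NRF1, was called higher (0.23, adjusted p = 0.0425). There 8.71% of all genes were called lower and 24% higher. Of the ubiquitin genes listed only the activating enzyme gene Uba6 was measured with a probe set of its own, and it differed by 0.11.

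Promoter sequences were matched for 37 of the 45 genes, 40 windows of 300 bases each from 250 before to 50 after the start, on 13 chromosomes. The CNC-bZIP element TGACNNNGC, searched on both strands, was found in 6 of the 40 windows (15.0%), where 12.4% of all 32851 windows in the table hold it. It lay in the windows of the called genes Psmb6, Psmc6, Psmb5, Psmd12 and Psmd9 and of Psme4, which was not called. The CCAAT box was in 5 of 23 windows of called genes (21.7%) and 10 of 17 windows of genes not called (58.8%), against 37.4% of all windows. The GC box GGGCGG was in 13 of 23 (56.5%) and 8 of 17 (47.1%), against 35.7%. These matches are descriptions of letters, and no difference between the sets was tested.

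Markers of other cells and of the cell cycle were measured beside these genes. Over all genes 19.5% were called higher and 14.3% lower. Of 11 proliferation genes 9 were called higher in Ly6C- F4/80high cells, and the mean of the list ran from 7.45 to 7.54 in the Ly6C- F4/80high arrays and from 6.41 to 6.42 in the Ly6C+ F4/80low arrays. Dendritic cell markers were lower in 4 of 7 cases (5.25 to 5.35 against 5.76 to 5.84), and those of fibroblasts and endothelium in 6 of 7 (5.87 to 5.96 against 6.45 to 6.72). Neutrophil markers were lower in 3 of 8 cases (4.75 to 4.90 against 5.05 to 5.12) and T and NK cell markers in 2 of 7 (4.51 to 4.67 against 4.77 to 4.89), and in each of these lists 5 genes had both subset means under the background. These include the genes Ly6g, Cxcr2 and Nkg7, which were called lower. Ly6g and Cxcr2 lay under the background on all 6 arrays. The neutrophil gene S100a8 was higher by 0.30 and was not called. B cell markers were higher in 1 of 4 cases (5.01 to 5.18 against 5.04 to 5.12) and muscle markers lower in 2 of 6 (5.81 to 5.89 against 5.96 to 5.98). Both means were also under the background for 2 dendritic cell, 2 B cell, 1 muscle and 1 proliferation gene. The part of these cells and of cycling in the proteasome differences was not tested.

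**Figure D4:**
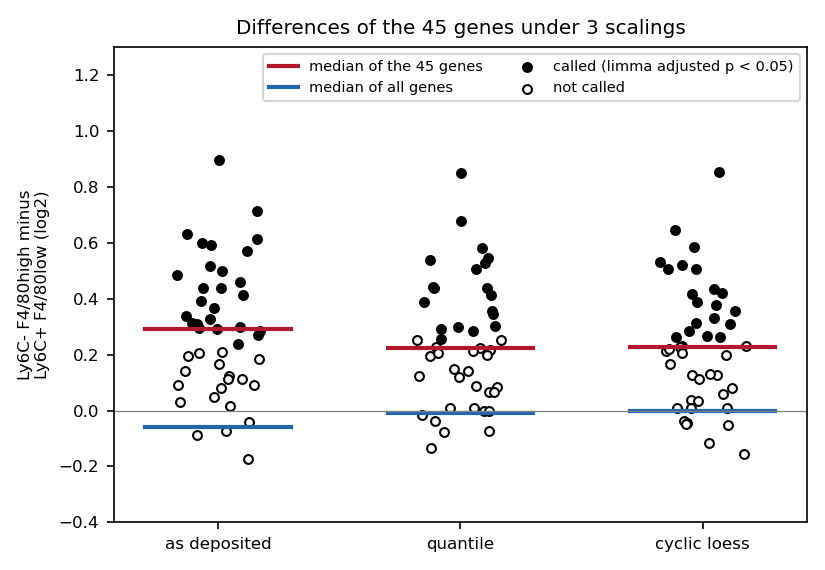
Log2 differences of the 45 genes (Ly6C- F4/80high minus Ly6C+ F4/80low) with the values as deposited, after quantile normalization and after cyclic loess. Points are genes, filled where called by limma, and lines are the medians of the 45 genes and of all genes. The median of the 45 genes is 0.29, 0.22 and 0.23 and that of all genes lies below 0 in each.

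Quantile normalization gave the 45 genes a median difference of 0.22 and cyclic loess 0.23, below the 0.29 of the deposited values, and 0.37 with a common median, above it. With a common median 32 were called, where 24% of all genes were called higher. Quantile normalization left 19 of the 45 called higher, 18 of them among the 26, with 17.9% of all genes called higher. Cyclic loess left 21, 20 of them among the 26, with 18.3% of all genes. Psmc3ip was the added gene in both, at 0.30 (adjusted p = 0.0331) and 0.31 (adjusted p = 0.0241). Under a replicate block for the mouse 23 were called, all among the 26, where 18.3% of all genes were called higher. Without the 25% of genes of lowest level 27 were called of 44 (26.9% of all genes kept), and without the 50% of lowest level 29 of 41 (38% of all genes kept).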

How the data were processed

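The deposited values are log2 expression values per probe set, made by the authors with RMA, per the submitters' processing notes. For RMA, neither software nor version is given in the sources used here. That the scale is log2 was read from the values (1.20 to 13.5). RNA (150 ng per array) was extracted with Trizol, per the labels' protocols. Of 35556 probe sets 21789 had 1 gene symbol, giving 19938 genes. The 999 genes with several probe sets were represented by the one of highest mean. Their probe sets were compared where a result rests on them.

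Differences were fitted with limma 3.58.1 in R 4.3.3 (lmFit, eBayes), 3 arrays per subset, without a filter, two-sided, adjusted over all genes. The code of the fit was run on simulated data with independent noise. That simulation held no mouse effect and no shift in scale, so it does not check the calls against either. The members and lists were chosen with earlier results of these data known. Named with values were the 12 called genes of largest difference, fixed key subunits, the immunoproteasome and list members.

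Both subsets came from the same mouse, so the mouse pairs arrays. Deviations of paired arrays correlated at 0.033, -0.084 and 0.087. As no paired test is stated, the block was an alternative. Others were quantile, cyclic loess and common-median scaling, level filters, mean probe sets, a trended robust prior, array weights, a random block, and leaving out arrays or mice. One filter, at the receptor background, was added after seeing the data.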

Additional observations from a re-analysis of the deposited data

How the results depend on the processing

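Over 20 alternatives the number of the 45 genes called higher ran from 14 to 32 and the number called lower was 0 in each (limma), as in the fit reported. Leaving out 1 array gave 20 to 24 called, and leaving out 1 mouse gave 14 to 21. The lowest count, 14, came without mouse 3, where 13.4% of all genes were called higher. The median difference ran from 0.26 to 0.32 without 1 array or 1 mouse, and was 0.37 with a common median, where 32 were called and all genes split into 4789 higher and 1737 lower, against 3887 and 2861 as deposited. With the mouse as a replicate block 23 were called, which ended the calls of Psmd3, Psmd9 and Psma6 and of no other member. Of the 26 called genes 13 kept their call in all 20 alternatives, and 18 kept it without any 1 array. No called difference changed sign among the members and the immunoproteasome, proteasome-bound, shuttle, NRF1 pathway and ubiquitin genes. Of the cell type and cell cycle markers only Adgre1 was followed across the alternatives. The 3 catalytic ratios stayed positive, at 0.39 to 0.60 for Psmb5 to Psmb8, 0.81 to 0.93 for Psmb6 to Psmb9 and 0.20 to 0.40 for Psmb7 to Psmb10. The cause of these changes was not tested, and leaving out arrays changes both their number and which of them remain. Psma8 and Psmb11 lay under the background and Psmg3 and Psmc3ip near it, which limits what can be said of them.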
